A study of Oryza sativa Indica Group and Oryza sativa Japonica Group with 20 samples.

Results

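The last 10 Mb of chromosome 11 held 4806 of the 187445 peaks called in 8 CUT&Tag libraries of rice male meiocytes. CUT&Tag directs a transposase to chromatin through an antibody, so that a peak marks a place where the antibody's target was enriched. Peaks were counted as members where they started in the 10 Mb before the last base called on chromosome 11 in any library of the cultivar. In IR64, labelled as Oryza sativa Indica Group, this stretch ran from base 21791167 to 31791166 and held 866 H3K27me3 and 1659 H3K4me3 peaks over 2 libraries each. In Azucena, labelled as Oryza sativa Japonica Group, it ran from base 20170872 to 30170871 and held 1024 H3K27me3 and 1257 H3K4me3 peaks over 2 libraries each. Each cultivar's lists have their own coordinates, with the build not given in the sources used here, so positions are not shared between the cultivars. The stretch was chosen by the peak numbers of these same libraries, so peak numbers, densities and ratios are given as descriptions, with no test.

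The study profiled both histone marks in wild-type meiocytes of IR64 and Azucena, in prophase of the first meiotic division. Meiocytes were taken by micromanipulation as clusters of many cells without somatic cells, per the labels' protocols, and how many plants a library came from is not stated. The 4 groups used are H3K27me3 in IR64, H3K4me3 in IR64, H3K27me3 in Azucena and H3K4me3 in Azucena, with 2 libraries each. The authors' table gives 9.0 to 13.71 M uniquely mapped reads (units of 1000000) for every library but H3K27me3 replicate 1 of IR64, which had 47.91 M. The lowest background coverage in the peak lists was 2.40 and 1.85 reads in IR64 H3K27me3, against 5.90 to 7.71 in the other 6 libraries, and that of replicate 1 was not in proportion to its read number.

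H3K27me3 is the histone mark set by Polycomb repressive complex 2, and in plants it covers silent genes that are used in another tissue or stage. H3K4me3 marks the start of transcribed genes. In rice, the distal long arm of chromosome 11 is known for clusters of disease resistance genes of the nucleotide-binding, leucine-rich repeat (NBS-LRR) type, which lie in tandem copies and differ in copy number between cultivars. No gene was assigned to a peak here, since no annotation of these coordinates was used, and for the same reason the cell type could not be checked against marker genes.

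The end of chromosome 11 was poor in H3K4me3 in both cultivars, while H3K27me3 peaks were more numerous than at the other chromosome ends in IR64 and lay below their median in Azucena. H3K27me3 gave 486 and 380 peaks in replicates 1 and 2 of IR64, against medians of 358 and 316 over the last 10 Mb of the other 11 chromosomes. In both IR64 libraries this was the highest count of the 12 chromosome ends, and the next highest end of each library had 435 and 375 peaks. In Azucena, H3K27me3 gave 511 and 513 peaks, against medians of 551 and 572 at the other ends, ranking 10 and 12 of 12. H3K4me3 gave 843 and 816 peaks in IR64, against 1216 and 1182, and 610 and 647 in Azucena, against 1071 and 1085. In each of the 4 H3K4me3 libraries the end of chromosome 11 had the lowest count of the 12 ends. The sparsest other end had 911 and 895 peaks in IR64 and 785 and 800 in Azucena.

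As densities, given as the mean ± SD over 2 libraries, H3K27me3 stood at 43.3 ± 7.50 peaks per Mb in IR64 libraries and 51.2 ± 0.141 in those of Azucena. H3K4me3 stood at 83.0 ± 1.91 peaks per Mb in IR64 libraries and 62.9 ± 2.62 in those of Azucena. Relative to the median of the other ends, H3K27me3 was 1.28 in IR64 and 0.912 in Azucena, and H3K4me3 was 0.692 in IR64 and 0.583 in Azucena. The Azucena H3K27me3 value lay above 1 when only peaks of at least 4-fold enrichment were counted, at 1.16, and when the end was set against all other called sequence, at 1.12. H3K27me3 peaks covered 3.14% ± 0.602 of the stretch in IR64 and 4.68% ± 0.0420 in Azucena, and H3K4me3 peaks 7.07% ± 0.235 of it in IR64 and 5.45% ± 0.255 in Azucena. The rest of chromosome 11 held 31.7 ± 6.78 H3K27me3 peaks per Mb for IR64 and 42.4 ± 0.245 for Azucena, against which that mark was denser in the stretch in each of the 4 libraries. For H3K4me3 the remainder held 65.8 ± 1.27 peaks per Mb for IR64 and 62.5 ± 1.26 for Azucena, close to the stretch in Azucena and below it in IR64.

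Within the stretch the marks were unevenly spread over the 10 bins of 1 Mb, numbered here back from the last called base. In IR64 the terminal bin was the richest in H3K27me3, with 89 and 67 peaks, against 21 to 55 in the other 9 bins. Its mean of 78 was the highest of all 383 bins of 1 Mb of the IR64 chromosomes, ahead of 75.5 in the terminal bin of chromosome 12. The terminal bin of the other 11 chromosomes held a median of 39.5 H3K27me3 peaks in IR64. In Azucena the terminal bin of chromosome 11 held 64 and 69 H3K27me3 peaks, the mean of 66.5 ranking 58 of 375 bins, against a median of 58.5 at the other ends. The H3K4me3 mean of the terminal bin was 101.5 in IR64 and 70.5 in Azucena, in both cases the lowest of the 12 terminal bins.

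Individual bins departed from the stretch as a whole in both cultivars. The fifth bin of IR64 held 55 and 42 H3K27me3 peaks and 49 and 48 H3K4me3 peaks, a ratio of 1.0 and the poorest in H3K4me3 of the IR64 bins. The third bin of IR64 was the poorest in H3K27me3, with 33 and 21 peaks, beside 90 and 95 H3K4me3 peaks. The sixth bin was the richest in H3K4me3, with 118 and 103 peaks. In Azucena the second bin was the poorest in both marks, with 19 and 21 H3K27me3 and 31 and 33 H3K4me3 peaks. The richest Azucena bins were the tenth for H3K27me3, with 68 and 70 peaks, and the seventh for H3K4me3, with 87 and 89. No bin of the stretch had more H3K27me3 than H3K4me3 peaks in every pairing of libraries, against 0% of all bins in IR64 and 4.8% in Azucena. At the inner border, the tenth bin held a mean of 39 H3K27me3 and 80 H3K4me3 peaks in IR64, and the eleventh, just outside, 41 and 70.5. In Azucena the tenth bin held a mean of 69 H3K27me3 and 76 H3K4me3 peaks, and the eleventh 50.5 and 78.5.

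**Figure D1:**
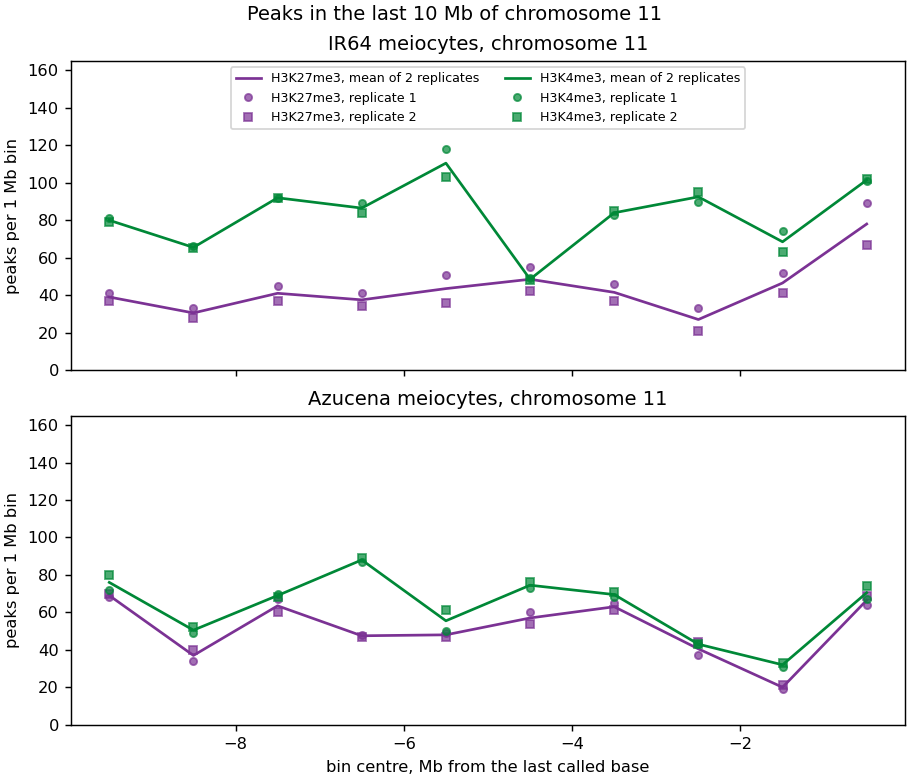
Number of called peaks (y axis) in bins of 1 Mb over the last 10 Mb of chromosome 11 (x axis, Mb from the last called base), with a point per replicate and a line for the mean of 2 replicates. H3K27me3 rises to a mean of 78 in the terminal bin of IR64, and both marks dip in the second bin of Azucena, to means of 20 and 32.

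Set against H3K4me3, H3K27me3 was more frequent at the end of chromosome 11 than at any other chromosome end in both cultivars. In IR64 the ratio of the means was 0.522, and the 4 pairings of libraries ranged from 0.451 to 0.596, against a median of 0.295 at the other ends. The nearest other end was chromosome 12 at 0.439, with pairings from 0.392 to 0.486, so these ranges overlapped. In Azucena the ratio was 0.815, with pairings from 0.790 to 0.841, against a median of 0.551. Chromosome 12 was again nearest, at 0.715, with pairings from 0.701 to 0.729, below every pairing of chromosome 11. The lowest ratio of the other ends was that of chromosome 3, at 0.229 in IR64 and 0.433 in Azucena. Over the median of the other ends the ratio was 1.77 in IR64 and 1.48 in Azucena. In the remainder of chromosome 11 the ratio was 0.482 in IR64 and 0.678 in Azucena, and over all 12 chromosomes 0.333 and 0.569. Of the 10 bins, 9 in each cultivar lay above the median of the other ends, with bin ratios of 0.292 to 1.0 for IR64 and 0.540 to 0.943 for Azucena. Which cultivar had the higher ratio depended on the threshold, since among peaks of at least 4-fold enrichment it was 0.831 in IR64 and 0.746 in Azucena. With all libraries scaled to the same background coverage it was 0.770 in IR64 and 0.832 in Azucena.

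**Figure D2:**
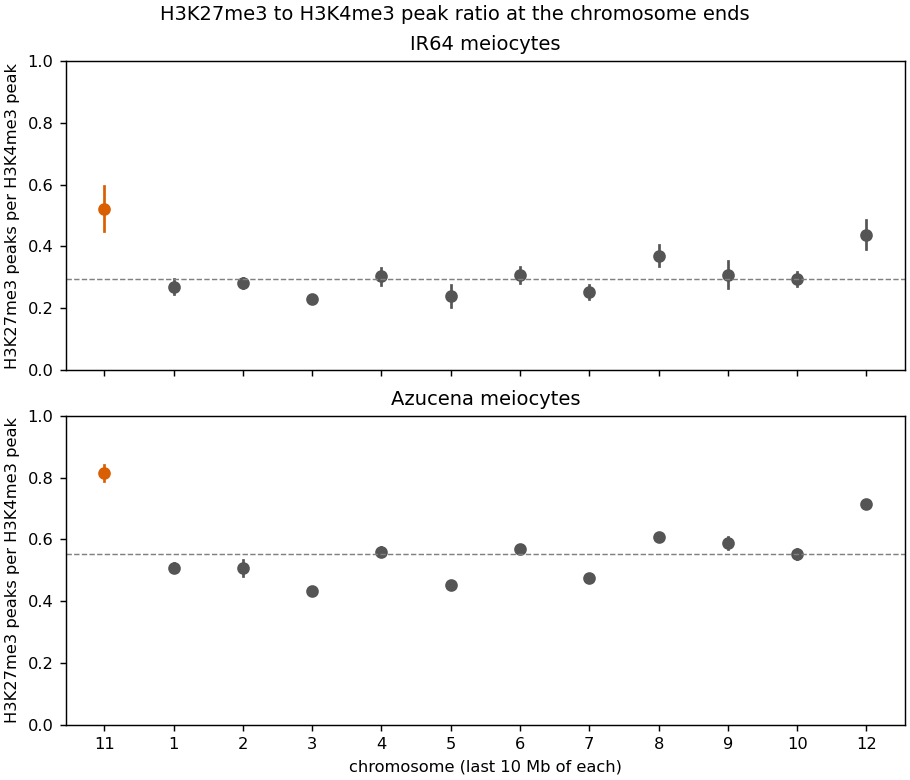
H3K27me3 peaks per H3K4me3 peak (y axis) in the last 10 Mb of each chromosome (x axis, chromosome 11 at the left), as the ratio of the means (point) and the range over the 4 pairings of libraries (line). The dashed line is the median of the other 11 chromosomes; chromosome 11 lies highest in both cultivars, at 0.522 in IR64 and 0.815 in Azucena.

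Peaks were then joined over replicates into reproducible regions, which are merged regions that hold a peak of each replicate. The stretch held 315 H3K27me3 and 696 H3K4me3 regions in IR64, and 429 and 558 in Azucena. Of the IR64 H3K27me3 peaks in the stretch, 65.4% of those in replicate 1 and 85.0% of those in replicate 2 overlapped a peak of the other library, and in Azucena 85.5% and 86.7% did. For H3K4me3 these shares were 84.7% and 88.5% in IR64, and 92.6% and 87.6% in Azucena. The lower share of IR64 H3K27me3 replicate 1 went with its longer list, and over the whole list it was 66.1%.

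Azucena had long stretches near its chromosome 11 end without reproducible regions of either mark. The longest ran from base 28386058 to 28755006 (369 kb), 1416 kb from the last called base, and it was longer than any such gap at the other 11 ends, where the longest were 56.2 to 206 kb. No H3K4me3 peak lay in it in either replicate, and H3K27me3 had 0 and 3 peaks. In all, 6 gaps over 100 kb lay in the Azucena stretch, against 0 to 3 at the other Azucena ends. The next 5 measured 191, 134, 117, 104 and 102 kb. IR64 had 0 gaps over 100 kb there. Its longest gap was 80.4 kb, from base 27558586 to 27639019, and ranked 6 of 12 ends. The sequence of these stretches was not analysed here. Whether gaps of the assembly lie in the longest one, and lower the counts of the second Azucena bin, was not tested.

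The order of the regions along the chromosome was described by runs. A run is a succession of regions of one mark with no region of the other starting in between. Run lengths depend on the numbers of both marks, which chose the stretch, so they are descriptions. The longest H3K27me3 run in IR64 had 14 regions over 113588 bp, from base 30566524 to 30680111, in the second bin and 1111 kb from the last called base, and 1 of the 14 overlapped H3K4me3. At the other ends of IR64 the longest runs had 4 to 13 regions. In Azucena the longest run had 13 regions over 113632 bp, from base 20227208 to 20340839, at the inner border of the stretch, against 6 to 20 regions at the other ends. A second Azucena run also had 13 regions. The longest H3K4me3 run had 25 regions in IR64, against 27 to 45 at the other ends, and 21 in Azucena, within the 18 to 35 of the other ends. The mean H3K4me3 run held 3.24 regions in IR64 and 2.45 in Azucena, the lowest of the 12 ends in both cultivars.

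Clusters were defined as 3 or more regions with gaps of at most 5000 bp. They are built from peak density, so they too are descriptions. IR64 had 9 H3K27me3 clusters with 30 of the 315 regions (9.52%), against a median of 10.6% at the other ends. Azucena had 30 clusters with 113 of the 429 regions (26.3%), against a median of 33.9%. For H3K4me3, 49 clusters held 25.1% of the regions in IR64 and 36 clusters held 22.2% in Azucena, against medians of 34.0% and 30.6%. The largest IR64 H3K27me3 clusters had 4 regions each, from base 24610506 to 24623625, from 31099623 to 31111761 and from 31658277 to 31670617. The last of these lay 120.5 kb from the last called base and held 4 H3K4me3 regions, and 5 of the 9 clusters lay in the terminal bin. The largest Azucena clusters had 8 regions from base 22967924 to 22989830, and 7 each from 20401233 to 20419630 and from 20758101 to 20776939. The first of these held 1 H3K4me3 region, the second 0 and the third 6. Cluster counts followed the definition: IR64 had 2 with gaps of at most 2000 bp and 27 with gaps of at most 10000 bp. Azucena had 10 with gaps of at most 2000 bp and 45 with gaps of at most 10000 bp. In single libraries IR64 had 30 clusters in replicate 1 and 15 in replicate 2, and Azucena had 41 in replicate 1 and 44 in replicate 2.

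**Figure D3:**
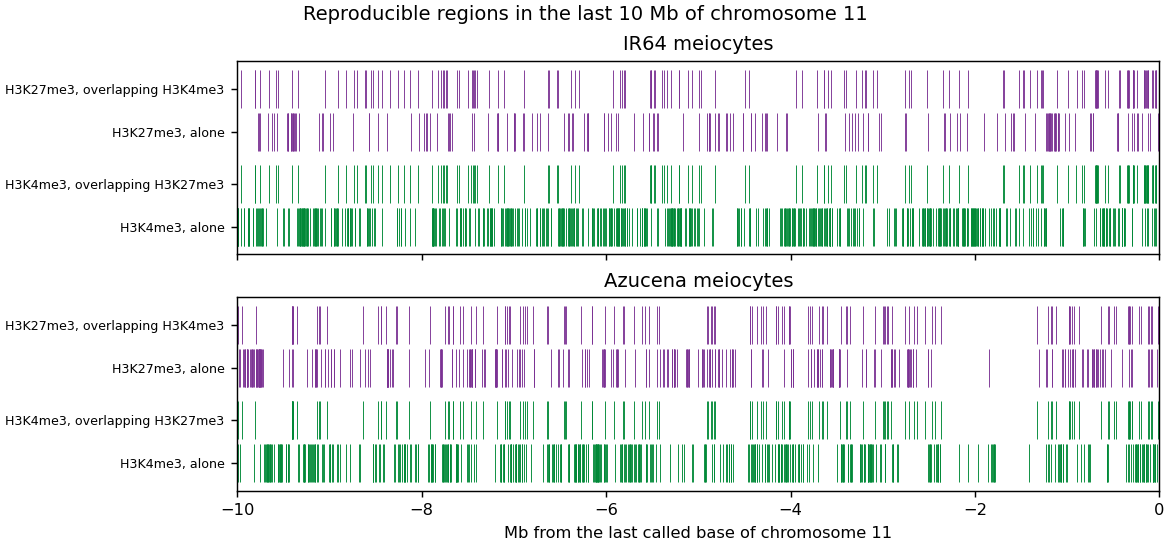
Each vertical line is a reproducible region in the last 10 Mb of chromosome 11 (x axis, Mb from the last called base), in rows for H3K27me3 and H3K4me3 regions that overlap the other mark or stand alone. The run of 14 H3K27me3 regions lies just over 1 Mb from the end in IR64, and the 369 kb gap lies between 1 and 2 Mb from the end in Azucena.

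Called H3K27me3 peaks had lower median widths than called H3K4me3 peaks in both cultivars. Widths are those of single calls in the deposited narrowPeak lists. Whether a wider marked domain was called as several peaks was not tested. Median H3K27me3 widths were 601 and 601.5 bp in IR64 and 744 and 758 bp in Azucena. Median H3K4me3 widths were 772 and 756 bp in IR64 and 812.5 and 792 bp in Azucena. Every H3K27me3 library had narrower peaks than every H3K4me3 library of its cultivar, with a mean difference of -107 bp (two-sided exact permutation p 0.0556, the smallest that 36 relabellings allow; 0.25 adjusted over 10 tests). Libraries of IR64 had narrower peaks than those of Azucena in both marks, with no overlap between the libraries and mean differences of -149.75 bp for H3K27me3 and -38.25 bp for H3K4me3 (exact permutation p 0.333 each, the smallest that 2 against 2 libraries allow; 0.417 adjusted). The H3K4me3 difference had the other direction among peaks of at least 4-fold enrichment, where IR64 was wider by 86 bp. It was 2 bp with peaks within 500 bp merged. Whole lists had median H3K27me3 widths of 611 and 631 bp in IR64 and 789 and 767 bp in Azucena. Their H3K4me3 medians were 826 and 800 bp in IR64 and 822 and 831 bp in Azucena. Narrower H3K27me3 than H3K4me3 peaks, and narrower H3K27me3 peaks in IR64, were therefore not particular to the stretch. The lowest background of the H3K27me3 lists was 2.40 and 1.85 reads in IR64 and 6.08 and 5.90 in Azucena. Its effect on width cannot be told apart from that of cultivar. Peaks over 2000 bp made up 0.909% ± 0.169 of the H3K27me3 peaks of IR64 and 5.96% ± 1.26 of those of Azucena. At the other ends these shares were 1.26% and 5.05%, as means of the library medians. In H3K4me3, peaks over 2000 bp made up 1.93% ± 0.126 in IR64 and 1.51% ± 0.275 in Azucena, ranking 11 or 12 of the 12 ends in each library.

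Against the other chromosome ends, median H3K4me3 widths were lower by 57.5 and 35 bp in IR64 and by 11.5 and 50 bp in Azucena, in 4 of 4 libraries (mean difference -38.5 bp, exact permutation p 0.125, the smallest that 16 sign patterns allow; 0.25 adjusted). H3K27me3 widths were lower by 14 and 14.5 bp in IR64, and in Azucena lower by 33 bp in replicate 1 and higher by 26.5 bp in replicate 2 (exact permutation p 0.5; 0.556 adjusted). The mean difference was -8.75 bp, and it was -0.667 bp without Azucena H3K27me3 replicate 1, -20.5 bp without Azucena H3K27me3 replicate 2 and 7.5 bp over the last 5 Mb. These tests against other ends measure whether libraries moved alike. They do not show that chromosome 11 stands apart from chromosomes in general, since the stretch was chosen with results known.

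Fold enrichment is the authors' value at the summit over the local background, and each peak was placed by its percentile within its own list. H3K27me3 peaks in the stretch had median percentiles of 49.4 and 52.0 in IR64 and 52.5 and 56.1 in Azucena, against 44.5 and 45.8, and 44.9 and 44.7, at the other ends. H3K4me3 peaks had medians of 51.4 and 54.1 in IR64 and 53.1 and 54.2 in Azucena, against 43.6 and 43.5, and 44.2 and 44.1. In all 4 H3K4me3 libraries this was the highest of the 12 ends, and in the H3K27me3 libraries it ranked 2 and 2 in IR64 and 3 and 1 in Azucena. The mean difference was 9.36 percentile points for H3K4me3 and 7.53 for H3K27me3, in 4 of 4 libraries each (exact permutation p 0.125, the smallest possible; 0.25 adjusted). As for width, this p does not show that chromosome 11 stands apart, since the stretch was chosen with results known. Whether fold is independent of the peak numbers that chose the stretch was not tested. Among peaks of at least 4-fold enrichment the H3K27me3 difference was -0.387 points. The top 10% of the H3K4me3 lists made up 10.3% and 11.03% of the members in IR64 and 10.8% and 10.97% in Azucena, against 6.26% and 6.80%, and 6.86% and 6.59%, at the other ends. For H3K27me3 the top 10% made up 6.996% and 6.58% in IR64 and 10.8% and 8.77% in Azucena, against 7.80% and 7.28%, and 7.48% and 7.69%, so the IR64 members were above the other ends in their median percentile and below them in this upper share.

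In all 8 libraries, both the local background and the summit coverage of the members were below the median of the other ends. Summit coverage and local background were recovered from the fold and p of each peak. Why the folds were higher was not tested. Median local background of the H3K4me3 peaks was 10.2 and 9.18 reads in IR64 and 7.70 and 8.07 in Azucena, the lowest of the 12 ends in all 4 libraries, against medians of 12.9 and 11.6, and 10.4 and 10.8. For H3K27me3 it was 4.53 and 4.14 reads in IR64 and 11.5 and 11.6 in Azucena, against 5.33 and 4.67, and 14.2 and 14.1. Median summit coverage of the H3K4me3 peaks was 41 and 37 reads in IR64 and 35 and 36 in Azucena, against 46 and 41, and 40 and 42. For H3K27me3 it was 24 and 22 reads in IR64 and 48 in both Azucena libraries, against 27.5 and 24, and 53 and 54. Ranked by summit coverage in place of fold, the members lay below the other ends, by 13.9 percentile points for H3K4me3 and 6.85 for H3K27me3.

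**Figure D4:**
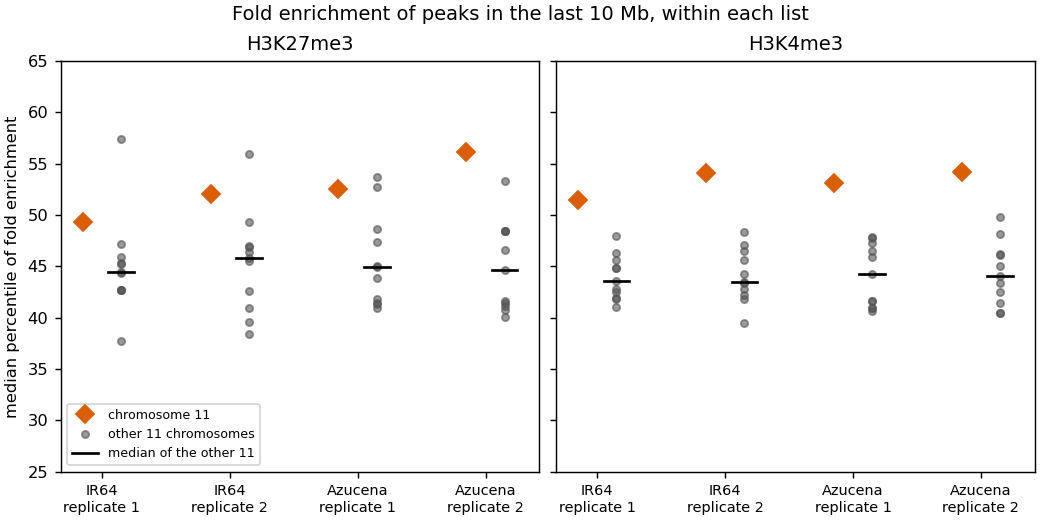
Median percentile of fold enrichment within each list (y axis, starting at 25) of the peaks in the last 10 Mb of chromosome 11 (diamonds) and of each of the other 11 chromosomes (circles, with their median as a bar), for each library (x axis). In the H3K4me3 libraries chromosome 11 lies at 51.4 to 54.2, above every other end.

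Overlap of the marks differed by the side from which it was read. Of the reproducible H3K27me3 regions in the stretch, 146 of 315 overlapped an H3K4me3 region in IR64 (46.3%, 95% Wilson interval 40.9 to 51.9), against 45.3% of all IR64 regions. In Azucena 137 of 429 did (31.9%, 27.7 to 36.5), against 34.3% of all. Both shares lay near the share of all regions. Of the H3K4me3 regions, 149 of 696 overlapped H3K27me3 in IR64 (21.4%, 18.5 to 24.6), against 12.6% of all IR64 regions. In Azucena 139 of 558 did (24.9%, 21.5 to 28.7), against 18.8% of all. At the other ends the H3K4me3 shares were 8.54% to 15.9% for IR64 and 13.5% to 22.6% for Azucena, below chromosome 11 in both. The intervals cover counting error only.

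Counted per library against the other ends, the share of H3K4me3 peaks with H3K27me3 was 20.4% and 20.0% in IR64, against 10.4% and 10.3%, and 24.4% and 25.2% in Azucena, against 16.7% and 16.9%. The mean difference was 8.92 percentage points. The share of H3K27me3 peaks with H3K4me3 was 36.2% and 44.5% in IR64, against 35.7% and 38.7%, and 29.4% and 29.2% in Azucena, against 31.2% and 31.3% (mean difference 0.593 points). That difference was -1.15 points without IR64 H3K27me3 replicate 2, -1.47 points over the last 15 Mb and -0.672 points against all other called sequence. Within the stretch, the IR64 share was 11.05 points above that of Azucena. It was 1.37 points among peaks of at least 4-fold enrichment. With a library left out it ranged from 6.17 points, without Azucena H3K4me3 replicate 1, to 16.5 points, without IR64 H3K4me3 replicate 2, and it was 6.92 points without IR64 H3K27me3 replicate 2. Shares against the other ends and between cultivars are descriptions, since they depend on the peak numbers that chose the stretch. Over all reproducible H3K27me3 regions the share was 45.3% in IR64 and 34.3% in Azucena. A higher IR64 share was therefore not particular to the stretch. Overlapping regions were nearly as many from either side, so a high H3K4me3 share follows from a high ratio of H3K27me3 to H3K4me3 with an H3K27me3 share near that of all regions.

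**Figure D5:**
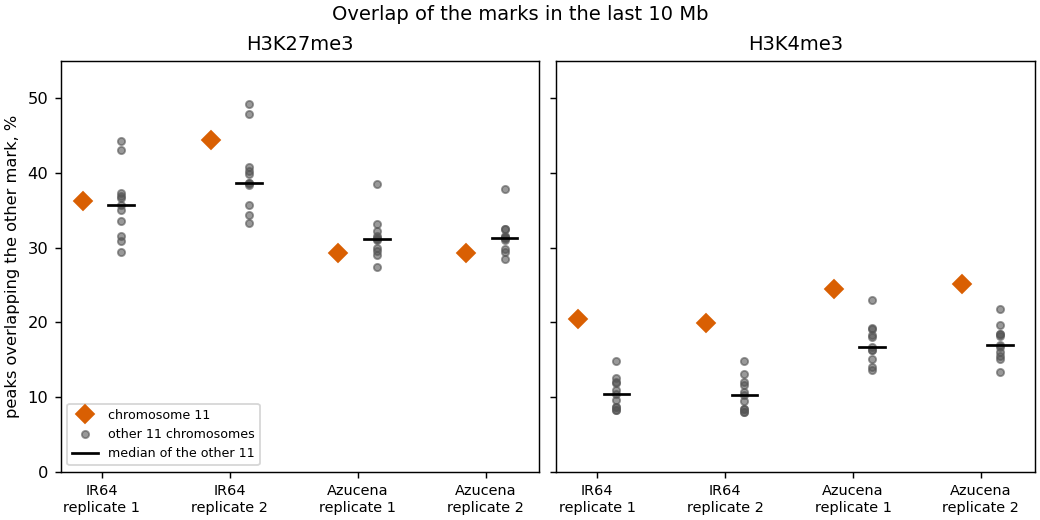
Share of peaks in the last 10 Mb that overlap a reproducible region of the other mark (y axis, %), for chromosome 11 (diamonds) and each of the other 11 chromosomes (circles, with their median as a bar), by library (x axis). The H3K4me3 shares of chromosome 11 lie at 20.0% to 25.2%, above every other end of the same library, and the H3K27me3 shares lie among the other ends.

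Overlap was most frequent in the terminal bin of IR64, more clearly so among H3K4me3 than among H3K27me3 regions. In that bin 38 of 56 H3K27me3 regions (67.9%) overlapped H3K4me3 and 41 of 82 H3K4me3 regions (50.0%) overlapped H3K27me3. In the other 9 IR64 bins the H3K4me3 share ran from 10.0% to 27.8% and the H3K27me3 share from 17.2% to 62.5%. The terminal bin of Azucena had 23 of 57 H3K27me3 regions (40.4%) and 24 of 63 H3K4me3 regions (38.1%) with overlap, and the third Azucena bin nearly the same H3K4me3 share, 37.1%. Most overlaps were close matches: 117 H3K27me3 regions of IR64 and 95 of Azucena shared at least 50% of both lengths with an H3K4me3 region. H3K27me3 regions further than 1000 bp from H3K4me3 numbered 149 in IR64 (47.3%), against a median of 50.4% at the other ends, and 272 in Azucena (63.4%), against 59.4%. These shares ranked 9 of 12 in IR64 and 1 of 12 in Azucena. Regions without overlap lay at a median of 6914 bp from the nearest H3K4me3 region in IR64 and 8110 bp in Azucena, against medians of 4511 and 4373 bp at the other ends. Both this distance and the share further than 1000 bp depend on H3K4me3 density, which was used to choose the stretch. They are therefore descriptions. H3K27me3 regions with H3K4me3 were wider than those without, at medians of 982.5 against 795 bp in IR64 and 1161 against 869 bp in Azucena. H3K4me3 regions with H3K27me3 were narrower than those without, at medians of 953 against 997 bp in IR64 and 903 against 999 bp in Azucena. Overlap needs only 1 bp, so a wider region can meet it more readily, and widths were not adjusted for this. Libraries were made from many cells, so an overlap does not show both marks on 1 nucleosome or in 1 cell.

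By mean fold, the best placed region of the stretch ranked 58 among the 14872 H3K27me3 regions of Azucena, of which the stretch held 429. The strongest IR64 H3K27me3 region lay at base 26087694 to 26088633, with folds of 6.74 and 8.78 in replicates 1 and 2 (mean 7.76 ± 1.44). It ranked 198 among the 8219 IR64 H3K27me3 regions, of which the stretch held 315, and stood 13229 bp from the nearest H3K4me3 region. Next came 22798943 to 22799543 (7.65 ± 2.90), 28520241 to 28520816 (7.56 ± 0.710), 29462615 to 29463291 (7.53 ± 0.484) and 31442070 to 31443159 (7.38 ± 0.630). The fifth was the only one of these 5 that overlapped a reproducible H3K4me3 region. In Azucena the strongest H3K27me3 region lay at 28842226 to 28843242, with folds of 9.10 and 9.45 (mean 9.27 ± 0.245, rank 58), 1328 kb from the last called base and distal to the long gap. It overlapped H3K4me3, as did the second, at 22588656 to 22589677 (8.93 ± 0.0373). The third to the fifth overlapped no reproducible H3K4me3 region, and lay at 29328135 to 29329243 (8.75 ± 0.375), 26494656 to 26496080 (8.40 ± 1.16) and 22850453 to 22851506 (8.38 ± 1.27).

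The strongest H3K4me3 regions ranked 122 to 358 among all H3K4me3 regions of IR64 and 270 to 395 among those of Azucena. In IR64 they lay at 24672539 to 24673630 (7.40 ± 0.944), 28996436 to 28998029 (7.29 ± 1.71), 22291000 to 22292515 (6.76 ± 0.345), 25174632 to 25176222 (6.72 ± 0.570) and 26787005 to 26788831 (6.68 ± 1.47). The fourth overlapped H3K27me3. In Azucena they lay at 26307421 to 26308831 (7.12 ± 0.701), 24021286 to 24022107 (6.93 ± 0.0871), 29627751 to 29629399 (6.91 ± 0.216), 23219902 to 23221130 (6.89 ± 0.226) and 29090106 to 29091305 (6.87 ± 0.578). The second and the third overlapped H3K27me3. Each of these ± values is an SD over 2 replicates.

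The widest H3K27me3 regions lay in part at the same sites as H3K4me3. In IR64 they measured 2969 bp at 26390406 to 26393374, 2696 bp at 31716819 to 31719514 and 2523 bp at 31658277 to 31660799, and all 3 overlapped H3K4me3. The second lay 71.7 kb from the last called base, and the third opened the terminal cluster of 4 regions. In Azucena the widest measured 4350 bp at 21887689 to 21892038, which overlapped a reproducible H3K4me3 region. The next measured 3312 bp at 27533898 to 27537209 and 3280 bp at 21283009 to 21286288, and neither overlapped a reproducible H3K4me3 region.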

How the data were processed

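CUT&Tag peak lists of 8 meiocyte libraries were used, 1 list per library, in narrowPeak format. The submitters' processing notes name fastp 0.20.1, Bowtie2 and MACS2 2.1.0 but give them no role, and the build, control and duplicate filter are not given in the sources used here. Every deposited peak carries its score, the ratio of summit to local background (fold enrichment), a −log10 p-value and a −log10 q-value. A table by the authors gave read numbers in units of 1000000 and the count of peaks per library, which equalled the length of each list. Positions are 1-based in each cultivar's own coordinates, chromosome ends are the last called base, and contigs were left out of all but list totals. The window, the measures and the alternatives were chosen with earlier results of these data known.

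Named regions are the 5 reproducible regions of highest mean fold per mark and cultivar, the 3 widest H3K27me3 regions, the 3 H3K27me3 clusters with the most regions and the longest runs. Overlap means at least 1 bp. Marks were compared by two-sided exact permutation of labels within cultivar, cultivars by the 6 relabellings of 2 against 2, and chromosome 11 against the median of the other 11 ends by sign flips over the 4 libraries of a mark, with Benjamini-Hochberg adjustment over 10 tests. Of these, the tests of overlap shares are not given as tests, since those shares depend on the peak numbers that chose the window. The labels do not state whether the replicates are separate plants. The p-values therefore measure the spread between these libraries alone, which may be technical. Summit coverage was recovered from fold and p under a Poisson tail with 1 added to both terms of the fold, and came out whole within 0.05 in 100% of the peaks of each library. Background coverage was 1.85 to 2.40 reads in IR64 H3K27me3 and 5.90 to 7.71 in the other libraries. The functions were tested on simulated data. Alternatives were other thresholds, window lengths, merging, the comparison with all other sequence, scaled coverage, a replicate block and leaving out each library. Python 3.11.15, numpy 2.4.6, pandas 2.3.3, scipy 1.17.1 and matplotlib 3.10.9 were used. The BS-seq table and the flag-leaf samples were not used here.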

Additional observations from a re-analysis of the deposited data

Results flagged for a closer look

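In the full peak lists, H3K27me3 lay on opposite sides of the other chromosome ends in the cultivars, with both libraries of a cultivar on the same side. The peak density of the chromosome 11 end over the median of the other ends was a mean of 1.28 over the 2 IR64 libraries (1.36 and 1.20) and 0.912 over the 2 Azucena libraries (0.927 and 0.897). Both cultivars lay above 1 among peaks of at least 4-fold enrichment, at 1.43 in IR64 and 1.16 in Azucena, and against all other called sequence, at 1.49 in IR64 and 1.12 in Azucena. The share of H3K27me3 peaks overlapping H3K4me3 was 3.14 percentage points above the other ends in IR64 (0.479 and 5.81) and differed by -1.96 points in Azucena (-1.86 and -2.05). Neither difference between cultivars was tested.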

How the results depend on the processing

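Over 20 results, 205 values were computed under alternatives, of which 84 left out a library. Leaving out a library turned the direction of 1 of these 84 values, and the other 121 alternative values included 10 with the direction turned. Sizes also changed, as given below. The chromosome 11 ratio of H3K27me3 to H3K4me3 stayed above its comparison in both cultivars under every alternative run. The comparison was the median of the other ends, or all other called sequence in that alternative. This is a description, since the peak numbers of the same libraries chose the stretch. Among peaks of at least 4-fold enrichment, density over the other ends was 1.43 in IR64 and 1.16 in Azucena for H3K27me3, and 0.927 and 0.799 for H3K4me3. The ratio was then 0.831 in IR64 and 0.746 in Azucena, the H3K4me3 width difference between IR64 and Azucena 86 bp, and the H3K27me3 fold percentile difference from the other ends -0.387 (exact permutation p 0.875). With −log10 q of at least 5 the IR64 H3K4me3 density was 0.680, and with peaks within 500 bp merged it was 0.696 and the H3K4me3 width difference between cultivars 2 bp. Over the last 5 Mb the densities were 1.47 in IR64 and 0.847 in Azucena for H3K27me3 and 0.602 and 0.494 for H3K4me3. The ratios there were 0.611 in IR64 and 0.853 in Azucena, or 2.55 and 1.82 over the other ends, and H3K27me3 widths differed from the other ends by 7.5 bp. Over the last 15 Mb, H3K27me3 density was 0.940 in Azucena, H3K4me3 density was 0.697 in IR64 and 0.624 in Azucena, and the difference in H3K27me3 overlap share was -1.47 points. Against all other called sequence, densities were 1.49 in IR64 and 1.12 in Azucena for H3K27me3 and 0.941 and 0.773 for H3K4me3, and the overlap difference was -0.672 points. With coverage scaled to the lowest background, IR64 H3K4me3 density was 0.698, the IR64 ratio 0.770 and the Azucena ratio over the other ends 1.53. With a library left out, the H3K27me3 overlap difference from the other ends ranged from -1.15 to 1.48 points, the overlap difference between IR64 and Azucena from 6.17 to 16.5 points, and the H3K27me3 width difference from the other ends from -20.5 to -0.667 bp. Summit coverage in place of fold, chosen after seeing the data, gave -6.85 percentile points for H3K27me3 and -13.9 for H3K4me3. IR64 had 2 H3K27me3 clusters with gaps of at most 2000 bp, 27 with gaps of at most 10000 bp, and 15 to 30 in single libraries. Azucena had 10 with gaps of at most 2000 bp, 45 with gaps of at most 10000 bp, and 41 to 44 in single libraries. The cause of these changes was not tested.

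The deviations of same-numbered H3K27me3 and H3K4me3 libraries had correlations of -0.0348 in IR64 and -0.0424 in Azucena over bins of 1 Mb, so the numbers were not taken as pairs. With the replicate number as a block, the width difference between H3K27me3 and H3K4me3 was -107 bp (exact permutation p 0.125). The width differences between IR64 and Azucena were then -149.75 bp for H3K27me3 and -38.25 bp for H3K4me3 (exact permutation p 0.5 each). These are the smallest p that the block allows, so they cannot show whether the results depend on it. With 2 libraries per group, no comparison between cultivars can go below an exact permutation p of 0.333. The peak lists hold called peaks alone, so sequence without peaks was not measured.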
